A study of Saccharomyces cerevisiae S288C with 24 samples.

Results

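The 59 ribosome biogenesis factors described here are genes of the yeast *Saccharomyces cerevisiae* with a known role in building ribosomes. They were chosen for that role, with earlier results of these data known, and are 59 of the 6929 loci in the deposited tables. They were grouped by role into 5 proteins of small nucleolar ribonucleoproteins (snoRNPs), 19 factors of the small (40S) subunit, 21 factors of the large (60S) subunit, 7 RNA helicases and 7 GTPases and export factors. All 59 passed the filter on low values and were tested. RNA was sequenced from strain BY4741 (WT) and from Sc12, a deletion strain that lacks *TRP5* (tryptophan synthase, the last step of tryptophan synthesis), after 24 h of culture in YPD, a rich medium. Cultures of either strain had no additive (WT, Sc12), tryptophan at 200 µg/ml (WT + Trp, Sc12 + Trp), isobutanol at 1.2% (WT + IB, Sc12 + IB) or both (WT + IB + Trp, Sc12 + IB + Trp), and each of the 8 groups has 3 libraries. Isobutanol is an alcohol of interest as a biofuel that slows yeast growth. The study asked how tryptophan bears on the tolerance of it. Sc12 is a single strain, so the deletion and any other difference between the strains cannot be told apart. Whether the 3 replicates of a group came from separate cultures is not given in the sources used here, and p-values measure only how far these samples spread.

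Ribosomes are assembled in the nucleolus, where RNA polymerase I makes a long precursor RNA that is cut, folded and chemically modified. The snoRNPs guide the modification, the small subunit processome cuts out and shapes the precursor of the 40S subunit, a separate chain of factors matures the 60S subunit, and helicases and GTPases drive the steps forward up to export from the nucleus. In yeast the genes of these factors are known to be switched on together in growing cells and switched off together under stress or starvation. Many of their promoters carry a pair of short motifs, called PAC and RRPE, which are bound by the repressors Dot6 and Tod6 (PAC) and by Stb3 (RRPE).

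The promoter sequences show this shared feature. In the window from 250 bases before to 50 bases after the annotated start, 57 of the 59 factors (96.6%) held GATGAG, the core of PAC, and 49 (83.1%) held AAAATTTT, the core of RRPE, counted on either strand. Of all 6001 promoters of protein-coding nuclear genes in windows of the same length, 20.4% held the first and 9.03% the second. Both stood in 48 of the 59 windows (81.4%) and in 4.38% of all. The letters of the 2 motifs cannot overlap each other, but genes that diverge from a shared promoter share matches. *UTP22* was the only factor with neither, *UTP15* held RRPE without PAC, and 9 factors, among them *NOP16* and *MAK5*, held PAC without RRPE. For each role, the factor with the highest level per length among those with both motifs before the start is shown. *NOP58*, *MAK21* and *NOP16* are added because results below turn on them. The stretches run 5′ to 3′ on the strand of the gene, with the motif cores, in either orientation, in capitals.
*CBF5* (snoRNP), chrXII:505923-506018, plus strand: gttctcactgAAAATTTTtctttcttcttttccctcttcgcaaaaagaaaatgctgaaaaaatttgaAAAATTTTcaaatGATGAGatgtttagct
*NOP58* (snoRNP), chrXV:898458-898505, minus strand: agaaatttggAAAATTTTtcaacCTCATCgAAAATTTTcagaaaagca
*IMP4* (40S), chrXIV:485450-485496, plus strand: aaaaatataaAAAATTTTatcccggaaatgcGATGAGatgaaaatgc
*RLP7* (60S), chrXIV:627222-627291, minus strand: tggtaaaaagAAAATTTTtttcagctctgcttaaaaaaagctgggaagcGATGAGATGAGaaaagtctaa
*MAK21* (60S), chrIV:570466-570509, plus strand: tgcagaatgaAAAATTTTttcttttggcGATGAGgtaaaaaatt
*NOP16* (60S), chrV:156688-156713, plus strand: aaaaataggcGATGAGataaatttat
*DBP2* (helicase), chrXIV:413474-413511, plus strand: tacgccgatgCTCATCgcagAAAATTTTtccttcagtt
*TIF6* (GTPase and export group), chrXVI:593149-593319, minus strand: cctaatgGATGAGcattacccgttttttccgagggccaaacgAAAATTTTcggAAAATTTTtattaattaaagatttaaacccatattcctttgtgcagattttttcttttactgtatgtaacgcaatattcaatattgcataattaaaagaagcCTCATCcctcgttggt
The sequence and positions are those of the RefSeq copy of the R64 assembly (sacCer3). The PAC cores began at a median of -121 from the start and 82 of the 93 lay between -200 and -51, while the RRPE cores began at a median of -143 and 52 of the 60 lay in that stretch.

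**Figure D1:**
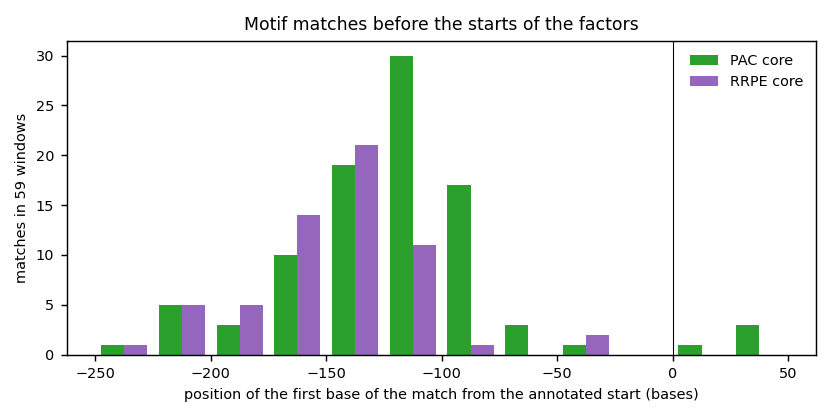
Matches of the PAC core and the RRPE core in the promoter windows of the 59 factors, by the position of their first base from the annotated start in bins of 25 bases (x axis, bases) and number of matches (y axis). Of 93 PAC cores 82, and of 60 RRPE cores 52, lie between -200 and -51.

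Libraries held 5218712 to 14580261 fragments, and the lowest count of any factor was 32 fragments (*IMP3*). The deletion was seen in the data, as *TRP5* had 2921 to 8481 fragments in each library of the 4 WT groups and 0 to 11 in each of the 4 Sc12 groups. Levels are given as CPM (counts of fragments relative to the total of the library, after TMM scaling), and a locus is called a differentially expressed gene (DEG) when its log2 fold change is above 1 or below -1 and its adjusted p is below 0.05 in edgeR. The words rose and fell are kept for DEGs. One feature of the scaling bears on every comparison with Sc12 + IB. The TMM factors of its 3 libraries were 0.5879 to 0.6869, against 0.97 to 1.14 elsewhere. With plain library totals instead, the median of all loci moved by -0.82 in Sc12 + IB against Sc12, by -0.65 in Sc12 + IB against WT + IB, by 0.75 in Sc12 + IB + Trp against Sc12 + IB, and by -0.76 and 0.75 in the interactions described below. It moved by 0.11 in Sc12 against WT and by 0.10 or less in the others. Values below are those with TMM, relative to the typical locus, unless library totals are named. Counts of DEGs with library totals take in the shift of all loci and are given without the share of all loci. In bulk cultures, fewer cells of a kind and less RNA per cell cannot be told apart, and neither can a treatment and the growth state it leaves at harvest. Culture density was measured in the study and is not among the values analysed here.

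The factors differ widely in level. Per kilobase of coding sequence, the mean over all libraries was highest for *TIF6* (YPR016C), which keeps the 60S subunit from joining the 40S too early, at 169.0 CPM per kb. It was followed by *NOP16* (152.1), *CBF5* (132.8), the pseudouridine synthase of H/ACA snoRNPs, and *RLP7*, a factor that resembles ribosomal protein L7. The lowest were *RRP12* and *UTP4* (8.77 CPM per kb), a part of the UTP-A subcomplex that joins the precursor first. All 5 snoRNP proteins stood among the 10 highest per length.

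**Figure D2:**
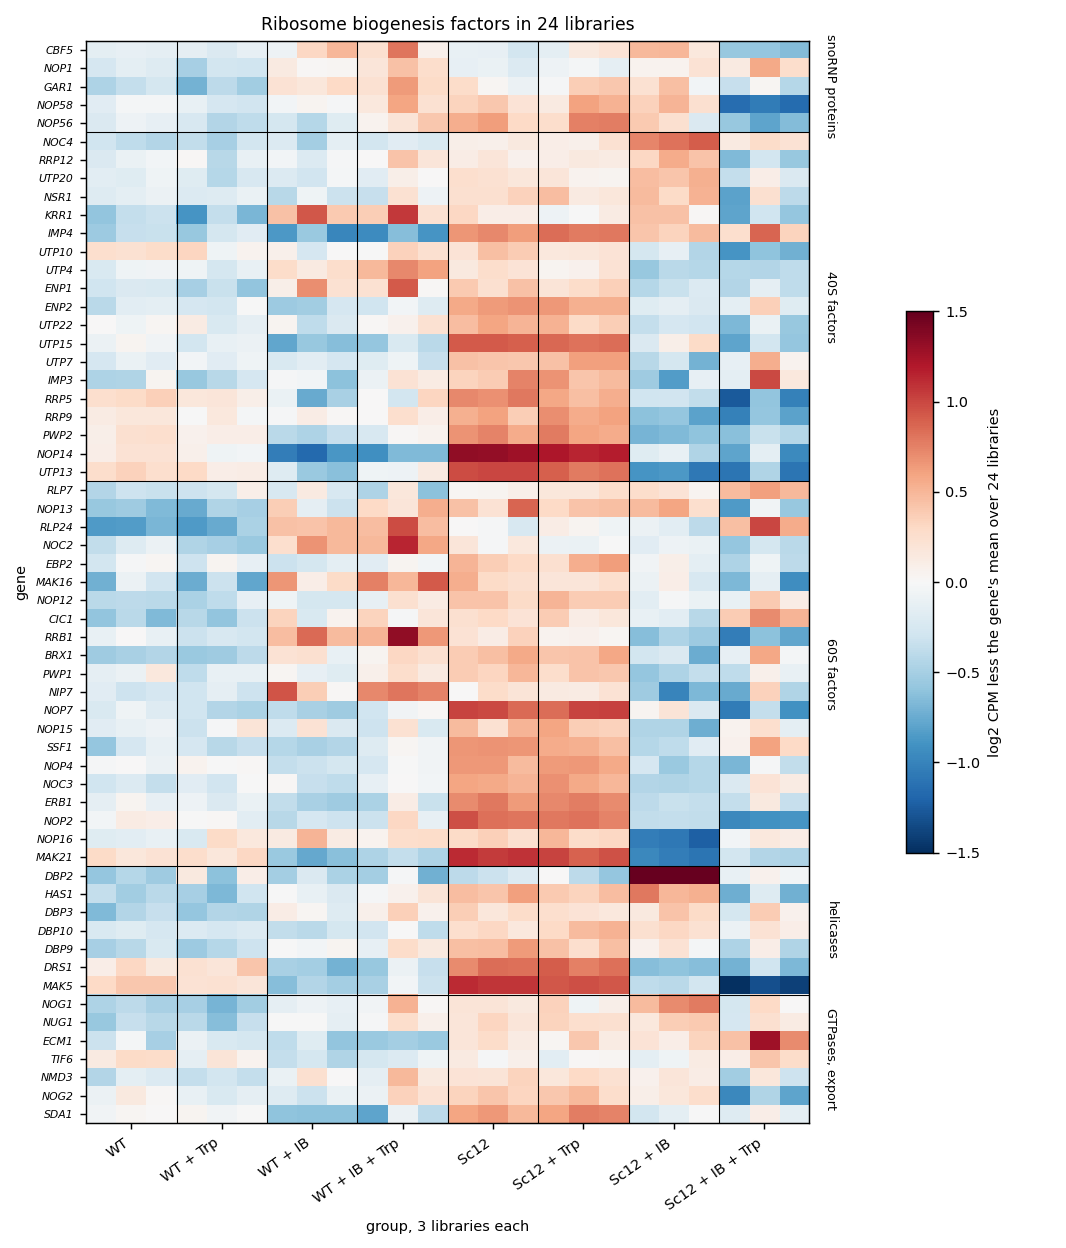
Level of each factor (rows, grouped by role and sorted by the change in Sc12 + IB against Sc12) in each of the 24 libraries (columns, grouped), as log2 CPM less the mean of the gene over all libraries, with colours cut at -1.5 and 1.5. The untreated and tryptophan-fed Sc12 libraries are red for most factors, and *DBP2* stands out in Sc12 + IB.

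Most factors stood higher in Sc12 than in WT before any isobutanol was added. Of the 59, 57 had a log2 fold change above 0 (Sc12 against WT), with a median of 0.59 against -0.01 over all 6346 loci tested. Only 4 rose past the fold threshold, where 1.78% of all loci did, and 0 fell, where 1.53% did (edgeR; 0 also by DESeq2 and 0 at an unadjusted p below 0.05). By adjusted p alone 49 were higher, against 19% of all loci, and 0 were lower, against 22.3%. The 60S factors and the helicases had the highest medians, both 0.72, and the snoRNP proteins the lowest, 0.40.

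*NOP14* (YDL148C), a factor of the small subunit processome, had 44.5, 48.3 and 48.3 CPM in the WT libraries and 104.3, 104.1 and 100.6 in Sc12. The groups were far apart, and the fold was 2.19 (log2 1.13, SE 0.13, adjusted p = 6.32e-07). Its 40S companion *IMP4*, of the Mpp10 complex, had 35.1, 40.6 and 40.7 CPM in WT and 81.4, 84.9 and 79.4 in Sc12 (log2 fold change 1.08, SE 0.14, adjusted p = 1.68e-06). On the 60S side *NOP7*, which works with Erb1 and Ytm1, went from 47.7 ± 2.9 to 103 ± 6.3 CPM (SD, n = 3). *NOP13*, an RNA-binding nucleolar protein, rose by 1.12 on the log2 scale, but it shares bases with a neighbouring locus. Without Sc12 replicate 3, the library with the fewest fragments, *NOP13* was at 0.94, below the threshold. The exceptions were *TIF6* (log2 -0.17, adjusted p = 0.159) and *CBF5* (-0.04), the factors of rank 1 and 3 by level, and *NOP1* (0.06), the methyltransferase of C/D snoRNPs. *UTP10* was at 0.09.

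With tryptophan given to both strains the median was 0.66 (Sc12 + Trp against WT + Trp), and 57 of 59 were above 0. *NOP7* (log2 1.37), *NOP14* (1.19) and *IMP4* (1.14) rose, where 1.56% of all loci did, and 0 fell, where 1.65% did (edgeR; 0 also by DESeq2 and 0 at an unadjusted p below 0.05). By adjusted p alone 50 were higher, against 19.7% of all loci, and 0 lower, against 21.1%. The lowest values were those of *DBP2* (-0.23), *TIF6* (-0.08) and *UTP10* (0.07). The count of 3 depends on single libraries, because many factors lie just under the fold threshold. It was 5 or 7 without WT + Trp replicate 2 or 3, and 6 without Sc12 + Trp replicate 1 or 2. Of the 6346 loci, 82 to 115 rose in these fits. Limma on log2(FPKM + 1) called 7 factors higher in Sc12 against WT in place of 4.

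**Figure D3:**
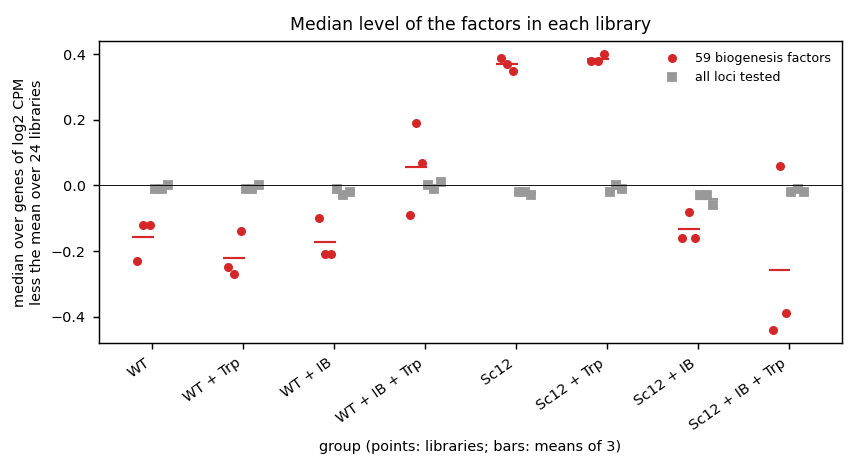
Median over the 59 factors (red circles) and over all 6346 loci tested (grey squares) of the log2 CPM less the mean of each gene over 24 libraries, for each library; bars are means of 3. The Sc12 and Sc12 + Trp libraries sit between 0.35 and 0.40, above all others, and Sc12 + IB + Trp replicate 2 (0.06) sits apart from the other two of its group (-0.44 and -0.39).

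In WT, the factors lay on both sides of 0 with isobutanol. The median log2 fold change of WT + IB against WT was 0.03, with 30 of 59 above 0. *RLP24* and *KRR1* rose, where 11.8% of all loci did, and *NOP14* fell, where 8.89% did. By adjusted p alone 20 were higher, against 34.8% of all loci, and 16 lower, against 34.6%, and both counts are shares of 59 no larger than those. *RLP24*, a 60S factor that resembles ribosomal protein L24 and gives way to it, had 15.0, 15.1 and 16.7 CPM in WT and 36.8, 36.5 and 37.9 in WT + IB, with no overlap (log2 1.25, SE 0.15, adjusted p = 8.1e-08). *KRR1*, a KH-domain protein of the processome, had 20.9, 24.7 and 25.3 CPM against 43.2, 60.8 and 41.7. Its log2 fold change of 1.04 lay close to the threshold, and without WT replicate 1 (0.96) or WT + IB replicate 2 (0.84), or with library totals (0.98), it was no DEG. *NOP14* went from 47.0 ± 2.2 to 20.3 ± 2.1 CPM (log2 -1.21). The next lowest were *MAK5*, a helicase of the 60S pathway (-0.90), and *MAK21* (-0.87), and *NIP7*, a 60S factor, was the third highest at 0.76.

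With tryptophan present, 6 factors of WT rose with isobutanol, a share of the 59 no larger than the 11.2% of all loci that rose. In the other direction 0 fell, where 8.56% of all loci did (edgeR and DESeq2; 8 were lower at an unadjusted p below 0.05). *RLP24* and *MAK16* (both 1.35), *NOC2* (1.27), *KRR1* (1.23), *RRB1* (1.16) and *NIP7* (1.01) rose. Of these, 5 belong to the 60S pathway: Noc2 is the partner of Mak21 and Noc3, and Rrb1 is a chaperone of ribosomal protein L3. By adjusted p alone 28 were higher, against 35% of all loci, and 7 lower, against 33.6%. The median of the 59 was 0.26 and that of all loci 0.01. All 5 snoRNP proteins passed by adjusted p alone, from 0.56 to 0.93. *NOP14* (-0.74), *MAK21* (-0.68) and *DRS1*, a helicase (-0.60), were again lowest. The factors were higher in WT + IB + Trp replicate 2 than in the other 2 libraries of its group. Without it 3 factors rose, where 658 of 6346 loci did.

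**Figure D4:**
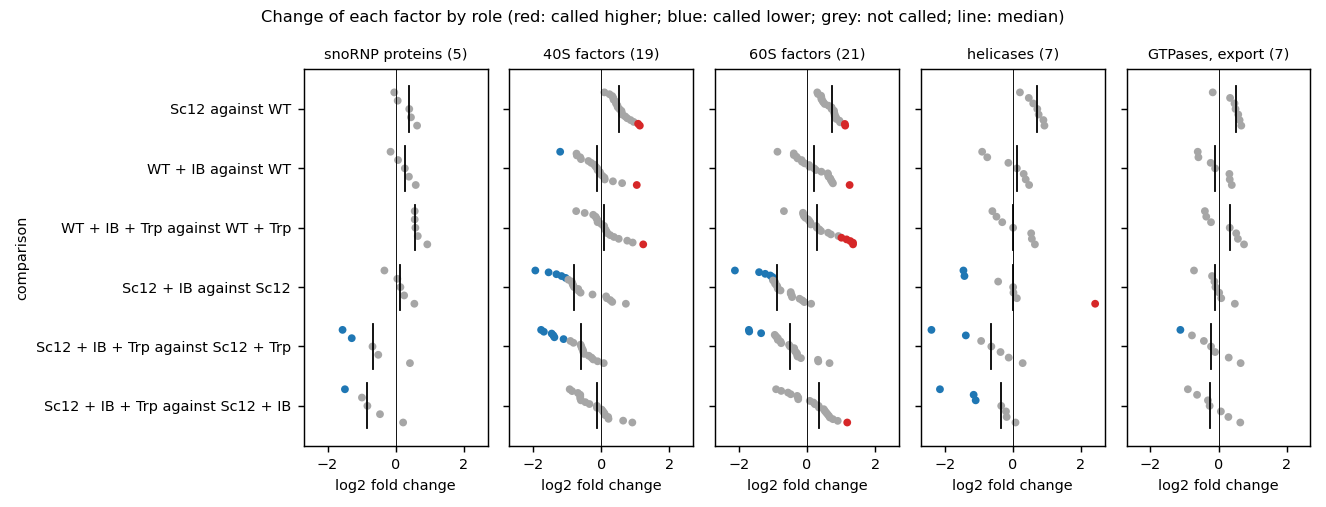
Log2 fold change (x axis) of each factor in 6 comparisons (rows), split by role (panels). Points are genes, red for DEGs that are higher, blue for DEGs that are lower and grey for the rest, and black lines are medians; in Sc12 + IB against Sc12 the medians are -0.87 for 60S factors and 0.14 for snoRNP proteins.

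In Sc12 the same dose of isobutanol lowered many of the factors. In Sc12 + IB against Sc12, 13 factors fell, where 10.6% of all loci did, and 1 rose, where 17.2% did. By adjusted p alone 34 were lower, against 37.1% of all loci, and 7 higher, against 36.4%. The median was -0.48, against -0.02 for all loci. Library totals shift all loci nearly alike, so the distance between these medians, -0.46, is kept by construction and is no check. The roles differed in their medians. The 40S factors (median -0.80, 5 fell) and the 60S factors (median -0.87, 6 fell) stood low. The snoRNP proteins (0.14), the helicases (0.01) and the GTPases and export factors (-0.09) had medians near that of all loci. With library totals all 5 of these medians lay below 0, as did that of all loci. Under that scaling 38 factors fell, a count that takes in the downward shift of all loci. *ENP2* (-0.80) and *PWP1* (-0.87) were the middle members of the 40S and 60S groups, *GAR1* (0.14) of the snoRNP proteins and *DBP10* (0.01) of the helicases.

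*MAK21* (YDR060W), a large 60S factor that pairs with Noc2 in the early steps, fell most. Its 3 libraries held 190.5, 181.3 and 186.4 CPM in Sc12 and 44.8, 42.8 and 40.9 in Sc12 + IB, a 4.34-fold drop (log2 -2.12, SE 0.076, adjusted p = 3.07e-17). In WT it was 103 ± 4.0 CPM without and 56.0 ± 4.0 with isobutanol. Sc12 thus started above WT and ended below WT + IB. *UTP13*, of the UTP-B subcomplex, had between 65.2 and 65.9 CPM in the 3 Sc12 libraries and between 15.5 and 18.1 in Sc12 + IB (log2 -1.94, SE 0.14). *PWP2*, of the same subcomplex, fell too (-1.32), as did *NOP14* (-1.55), *RRP9*, a protein of the U3 snoRNP (-1.17), and *RRP5* (-1.05), which is needed for both subunits. The other 60S factors that fell were *NOP16* (-1.41), *NOP2*, a methyltransferase of 25S ribosomal RNA (-1.23), *ERB1* (-1.08), *NOP4* (-1.01) and *NOC3* (-1.01). The last pair lay at the threshold and were at -0.99 by DESeq2. The helicases *MAK5* (-1.45) and *DRS1* (-1.42) fell as well.

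*DBP2* (YNL112W), a DEAD-box helicase whose gene holds a long intron, went the other way. It had 36.5, 38.4 and 41.8 CPM in Sc12 and 193.4, 210.8 and 218.2 in Sc12 + IB, while every library of the other 7 groups lay between 29.0 and 53.3. The rise was 5.35-fold (log2 2.42, SE 0.18, adjusted p = 1.55e-11), and it was a DEG with library totals as well (log2 1.59). The next highest factors were *NOC4* (0.72), the partner of Nop14, *CBF5* (0.55) and the GTPase *NOG1* (0.48), none of them a DEG. With library totals *DBP2* was the only factor above 0.

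**Figure D5:**
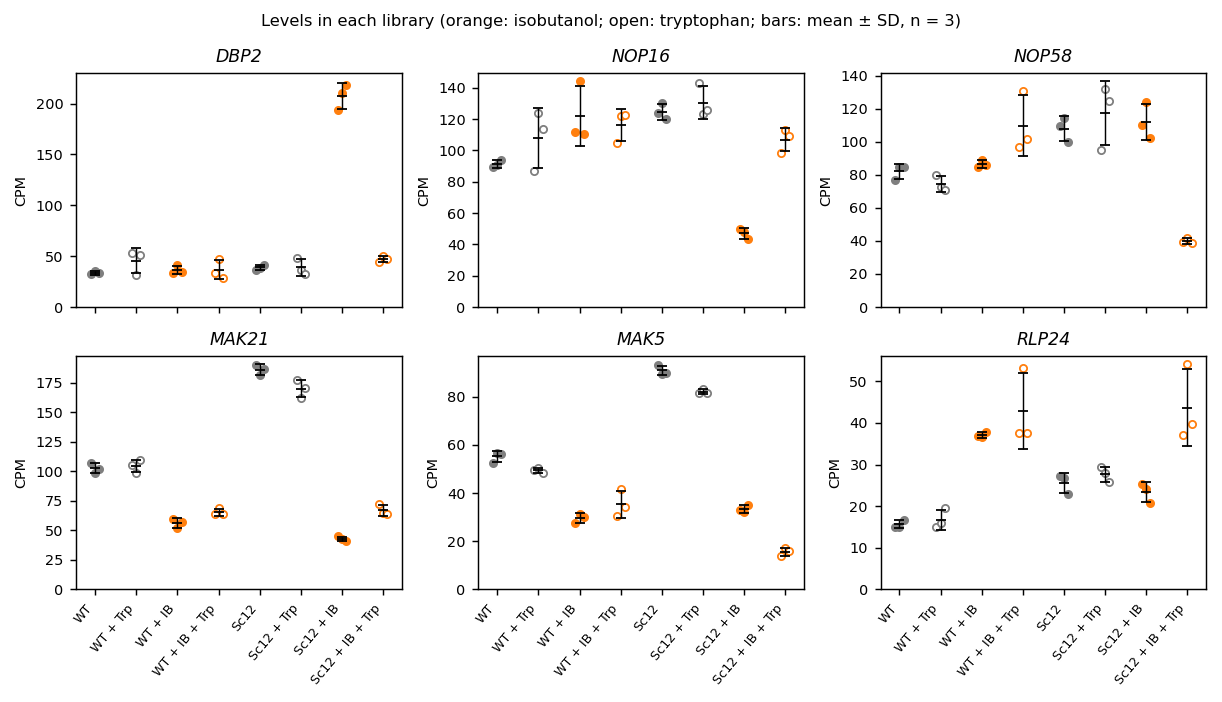
CPM (y axes, from 0) of 6 factors in the 3 libraries of each group (x axes). Orange marks isobutanol, open circles tryptophan, and bars give mean ± SD. *DBP2* is near 200 CPM only in Sc12 + IB, *NOP16* is lowest there (43.3 to 49.5), *NOP58* is lowest in Sc12 + IB + Trp (38.8 to 41.9), and *MAK21* and *MAK5* fall from their high levels in Sc12.

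The interaction of strain and isobutanol tests whether the response of Sc12 differs from that of WT. It was called lower for 15 factors, where 9.27% of all loci were, and higher for *DBP2* alone, where 16% of all loci were. The median was -0.63, against -0.04 for all loci. Of the 15, 10 were 60S factors and 5 were 40S factors, and all 21 of the 60S factors had a value below 0 (median -0.92). *NOP16* (-1.83), *NIP7* (-1.65) and *BRX1* (-1.47), a Brix-domain 60S factor, were lowest. *DBP2* (2.30), *NOC4* (0.62) and *TIF6* (0.50) were highest. *NOP16* had 89.2, 90.7 and 93.9 CPM in WT, 111.6, 144.2 and 110.6 in WT + IB, 123.7, 130.2 and 120.2 in Sc12, and 49.5, 48.2 and 43.3 in Sc12 + IB. It was thus higher with isobutanol in WT, by less than the threshold (log2 0.42), and lower in Sc12. With library totals, which also moved the median of all loci down, 40 factors were called lower. By limma on log2(FPKM + 1) 6 were called lower, *NOP16* not among them (-1.32, adjusted p = 0.232).

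Tryptophan given to the isobutanol-treated Sc12 cultures moved single factors by large amounts. In Sc12 + IB + Trp against Sc12 + IB, *NOP16* rose, where 9.39% of all loci did, and *DBP2*, *NOP58*, *HAS1* and *MAK5* fell, where 14.6% did. *DBP2* came down to 44.6, 50.2 and 46.8 CPM, a 4.39-fold drop (log2 -2.14, SE 0.17, adjusted p = 1.06e-10), close to its level in Sc12. *NOP16* came up to 98.4, 112.9 and 109.3 CPM, a 2.27-fold rise (log2 1.18, SE 0.12, adjusted p = 6.01e-09), though limma on log2(FPKM + 1) did not call it (log2 1.31, adjusted p = 0.063). *IMP3* (0.91), of the Mpp10 complex, and *RLP24* (0.90) were next. The roles again differed, with a median of 0.34 for the 60S factors, -0.13 for the 40S factors, -0.34 for the helicases, -0.26 for the GTPases and export factors and -0.83 for the snoRNP proteins, against 0.02 for all loci. With library totals the median of all loci was 0.77 and those of the 60S, 40S, helicase and export groups all lay above 0, while that of the snoRNP proteins was -0.10. The snoRNP proteins thus stood below the typical locus, by 0.86 with TMM and 0.87 with library totals. Because the change of scaling shifts all loci nearly alike, this distance is kept by construction, and its second value is no check on the first.

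*NOP58* (YOR310C), a core protein of C/D snoRNPs, was at 109.2, 114.6 and 99.9 CPM in Sc12 and at 110.2, 123.7 and 102.2 in Sc12 + IB. In Sc12 + IB + Trp it was at 39.1, 41.9 and 38.8, below every other library of the series, where the lowest was 70.8. The fall against Sc12 + IB was 2.81-fold (log2 -1.49, SE 0.12, adjusted p = 7.6e-11), or -0.74 with library totals, which is under the threshold. Its locus in the deposited table also holds the dubious reading frame YOR309C. *NOP56*, its partner in the C/D snoRNPs, was at -0.83 and *CBF5* of the H/ACA snoRNPs at -0.99, neither of them a DEG, while *NOP1* was at 0.22. The helicase *MAK5* went from 32.8, 32.2 and 35.1 to 13.8, 17.0 and 16.1 CPM, lower than in any other group (log2 -1.09). *HAS1*, a helicase needed for both subunits, was at -1.15. With library totals *HAS1* (-0.39) and *MAK5* (-0.34) were no DEGs. Under that scaling, which also moved the median of all loci up, 15 factors rose and 1 fell. With TMM, the number that rose was 2 or 3 without Sc12 + IB replicate 3, or without Sc12 + IB + Trp replicate 1 or 3. In those fits 556 to 604 of the 6346 loci tested rose. Without Sc12 + IB + Trp replicate 2 the number that fell was 9, where 956 of the 6346 loci did, a similar share.

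Set against Sc12 + Trp, which shares the tryptophan, isobutanol lowered 14 factors, where 8.02% of all loci fell, and 0 rose, where 9.93% did (edgeR and DESeq2; 6 were higher at an unadjusted p below 0.05). By adjusted p alone 43 were lower, against 34.1% of all loci, and 6 higher, against 35.3%. The median was -0.54 and 8 of 59 were above 0. The values with library totals were nearly the same here, with a median of -0.60. *MAK5* fell most, from 81.5, 83.3 and 81.6 to 13.8, 17.0 and 16.1 CPM (5.25-fold, log2 -2.39, SE 0.099, adjusted p = 1.09e-14), followed by *NOP14* (-1.77), *NOP7* (-1.71), *NOP2* (-1.70) and *UTP13* (-1.69). *NOP58* (-1.56) and *NOP56* (-1.29) fell here, and did not in Sc12 + IB against Sc12 (0.05 and -0.33). *UTP15* of the UTP-A subcomplex (-1.38) and the GTPase *NOG2* (-1.12), whose intron holds the small nucleolar RNA snR191, fell as well. *RLP24* (0.66), *ECM1*, a 60S export factor (0.65), and *NOP1* (0.42) were highest. Sc12 + IB + Trp replicate 2 stood apart from the other 2 libraries of its group in the median of the factors. Without it 20 fell, where 559 of 6346 loci did, and the median was -0.71.

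The interaction of strain and tryptophan under isobutanol compares this with WT. It was called lower for 11 factors, where 15.5% of all loci were, and higher for *NOP16* alone (1.25), where 9.94% were. *DBP2* (-2.14), *NOP58* (-1.83) and *MAK5* (-1.35) were lowest, and *ECM1* (0.81) and *RLP24* (0.69) followed *NOP16*. The snoRNP proteins had a median of -1.13 and 3 of 5 were called, *NOP58*, *NOP56* and *CBF5*. The 3 other snoRNP proteins listed further below had a median of 0.02, and 0 were called. The median of all 59 was -0.38, against 0.00 for all loci. With library totals it was 0.38, against 0.75 for all loci, with 13 called higher and 2 lower, *DBP2* and *NOP58*. Limma on log2(FPKM + 1) called 7 lower and 0 higher, and *NOP16* was at 1.39 there (adjusted p = 0.225).

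In WT + IB + Trp against WT + IB, 0 factors were called in either direction, as were 0% of all loci (edgeR and DESeq2). At an unadjusted p below 0.05, 23 factors were higher, against 8.62% of all loci, and 0 lower, against 6.67%. The log2 fold change was above 0 for 53 of 59, where 51.9% of all loci were, with a median of 0.22. Without WT + IB + Trp replicate 2, in which the median of the factors was highest of its group, 47 were above 0 and the median was 0.12. *NOP56* (0.51, adjusted p = 0.144), *RRP5* (0.46) and *UTP13* (0.44) were highest, and *ECM1* (-0.17), *RLP7* (-0.16) and *NOP16* (-0.07) lowest. By DESeq2, 2 factors passed by adjusted p alone. Tryptophan without isobutanol called 0 factors in either strain (edgeR and DESeq2). In Sc12 + Trp against Sc12, 0.0315% of all loci rose and 0.347% fell, and 1 factor was higher and 0 lower at an unadjusted p below 0.05. In WT + Trp against WT, 0.0158% of all loci rose and 0% fell, and 2 factors were higher and 1 lower at that limit. The factors lay between -0.21 (*RRP5*) and 0.24 (*CBF5*) in Sc12, and between -0.29 (*NOC2*) and 0.44 (*DBP2*) in WT. The last value rests on a spread group, since *DBP2* had 53.3, 31.2 and 51.6 CPM in WT + Trp.

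In Sc12 + IB against WT + IB the median was 0.10 (0.06 without Sc12 + IB replicate 2), where it was 0.59 without isobutanol, with 3 factors higher, where 16.1% of all loci were, and 3 lower, where 11.1% were. *DBP2* (2.51), *IMP4* (1.19) and *NOC4* (1.10) rose, and *NOP16* (-1.38), *NIP7* (-1.24) and *RRB1* (-1.16) fell. With library totals the median was -0.55, against -0.67 for all loci, 14 fell, only *DBP2* rose, and *IMP4* (0.55) and *NOC4* (0.45) were no DEGs. With tryptophan added to both, 2 factors rose in Sc12 + IB + Trp against WT + IB + Trp, where 11.8% of all loci did, and 8 fell, where 12.2% did. *ECM1* (1.41) and *IMP4* (1.33) rose and *RLP7* (0.79) was next. *RRB1* (-1.69), *NOP58* (-1.46), *MAK16* (-1.29), *NOC2* (-1.18), *MAK5* (-1.18), *KRR1* (-1.14), *UTP4* (-1.03) and *CBF5* (-1.01) fell. The count that fell was 5 without WT + IB + Trp replicate 2, where 692 of 6346 loci fell. It was 15 without Sc12 + IB + Trp replicate 2, where 794 loci fell, and 4 by limma on log2(FPKM + 1). *IMP4* was thus higher in Sc12 than in WT in all 4 media, by 1.08, 1.14, 1.19 and 1.33.

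Over the means of the 8 groups, most factors followed a shared course. The correlation of a factor with the median of the other 58 had a median of 0.67, and it was above 0.5 for 39. It was below 0 for *DBP2* (-0.22), *NOP1* (-0.20), *TIF6* (-0.16) and *ECM1* (-0.02). These are descriptions over 8 points that share libraries and scaling. Other loci were not measured in this way, so whether the shared course is particular to the factors was not tested.

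Related gene sets, drawn up with earlier results of these data known, put the factors in context. In Sc12 + IB against Sc12, where 10.6% of all loci fell and 17.2% rose, 15 of 45 other 40S factors fell and 0 rose (median -0.76). Of 43 other 60S factors, 9 fell and 1 rose (median -0.54). With library totals 35 and 36 fell and 0 rose (medians -1.59 and -1.36). *UTP14* (-2.12) and *SRP40* (-1.75) were lowest. *GRC3* rose by 1.55, but was at 0.72 and no DEG with library totals, and it fell by 2.23 when tryptophan was added (by 1.48 with library totals). Of 12 subunits and initiation factors of RNA polymerase I, which transcribes the ribosomal RNA precursor, 3 fell and 0 rose (6 fell with library totals), *RPA49* most (-1.83). Of 12 RNA polymerase III subunits, 2 fell and 1 rose (8 fell and 0 rose with library totals), numbers too small to set apart from the shares of all loci. In Sc12 against WT the medians of the 40S and 60S lists were 0.60 and 0.47. In WT + IB against WT they were -0.23 and -0.17. Of 3 other snoRNP proteins, *SNU13*, which binds the C/D motif, rose in WT + IB (2.25).

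Genes of the ribosomal proteins themselves did not run parallel to the factors. In WT + IB against WT, 110 of 138 rose and 1 fell (median 1.51), where 11.8% and 8.89% of all loci did. The median of the factors was 0.03. In Sc12 + IB against Sc12, 81 rose and 4 fell, where 17.2% and 10.6% of all loci did. Their median was 1.13, or 0.31 with library totals, while that of the factors was -0.48 (-1.30). In Sc12 + IB + Trp against Sc12 + IB, 66 fell and 1 rose, where 14.6% and 9.39% of all loci did. Their median was -0.98, or -0.23 with library totals. In Sc12 against WT, 0 rose and 0 fell (edgeR), where 1.78% and 1.53% of all loci did. By adjusted p alone 3 were higher and 39 lower, where 19% and 22.3% of all loci were. Their median was -0.29, where the factors had 0.59. Of 18 stress-induced genes, 9 fell and 0 rose in WT + IB, where 8.89% of all loci fell and 11.8% rose. In Sc12 + IB 3 rose and 1 fell, shares no larger than those of all loci (17.2% and 10.6%), and with library totals 1 rose and 5 fell. The chaperone gene *SSA4* was their highest in Sc12 + IB (2.16, or 1.32 with library totals), and it fell by 2.40 with tryptophan (by 1.65 with library totals). Of 74 small nucleolar RNAs, 28 rose and 1 fell in Sc12 against WT (median 0.61), where 1.78% and 1.53% of all loci did. With tryptophan given to both strains this was not repeated. There 8 rose and 3 fell (median -0.13), where 1.56% and 1.65% of all loci did. In Sc12 + Trp against Sc12, 0 rose and 18 fell, where 0.0315% and 0.347% of all loci did, and 0 of the 59 factors were called. These 18 calls depend on single libraries. Without Sc12 replicate 2 or 3, or without Sc12 + Trp replicate 2 or 3, 0 of all loci fell in that comparison.

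The regulators of these genes changed as follows. In WT + IB against WT, *SCH9* (-1.41), a kinase of the TOR pathway, *IFH1* (-1.35), a coactivator of ribosomal protein genes, and *STB3* (-1.11) fell. *SFP1*, an activator of both gene sets, was at -0.90, *FHL1*, the partner of Ifh1, at -0.54, and *DOT6* at 0.72. *TOD6* was at -0.07, *ABF1* at -0.24 and *RAP1* at -0.06. In Sc12 + IB against Sc12, *CRF1*, a corepressor of ribosomal protein genes, was the only one called with TMM. With library totals 5 others were called lower. *CRF1* had 65.9 ± 2.3 CPM in Sc12, 429 ± 50.2 in Sc12 + IB (log2 2.71, or 1.87 with library totals) and 76.1 ± 3.8 in Sc12 + IB + Trp (log2 -2.50 against Sc12 + IB, or -1.74). *DOT6* was at 1.00, just under the threshold, and at 0.17 with library totals. *SFP1* (0.28) and *RAP1* (0.79) were below 0 with library totals (-0.55 and -0.03), and *STB3* was at -0.03 (-0.86). *SCH9* was at -0.59, *FHL1* at -0.70, *IFH1* at -0.45, *TOD6* at -0.18 and *ABF1* at -0.53, and these 5 were called with library totals, at -1.42, -1.53, -1.27, -1.01 and -1.36. *TOD6*, a repressor of the factors, was higher in Sc12 than in WT without additions, at 70.2 ± 8.2 against 30.6 ± 1.3 CPM (log2 1.19, adjusted p = 5.54e-08). *ABF1*, a general regulatory factor, rose with tryptophan in Sc12 + IB (1.57, or 2.33 with library totals).

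Loci with the same promoter motifs can be followed without the factors. Among the tested loci of a single gene, 211 that are not members held both motifs. Their median was -0.41 in Sc12 + IB against Sc12 and 0.27 in Sc12 against WT. The 4309 with neither were at 0.01 and -0.05. The 873 with PAC alone were at -0.05 and 0.05, and the 272 with RRPE alone at -0.02 and -0.02. In WT + IB against WT the 211 loci with both were at -0.01. The factors with a locus of their own can be split in the same way. The 47 with both were at -0.43 in Sc12 + IB against Sc12 and 0.58 in Sc12 against WT. The 9 with PAC alone were at -1.0 and 0.72, further from 0 in both. Many of the 211 are other ribosome biogenesis genes, so this is a description of which loci moved and says nothing of the proteins that bind there.

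A few loci cannot be counted apart from others. Of the 59, 8 overlap another locus, among them *NOP13*, *NOP4*, *HAS1*, *ECM1*, *NOP56* and *RRP9*, and how reads of the other strand were treated is not stated. *SSF1*, a Brix-domain 60S factor with a paralog, *SSF2*, shared 4.04% of its 50-base windows with another place in the genome, and the other 58 shared none. *SSF1* was at 0.97 in Sc12 against WT.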

How the data were processed

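RNA of 24 yeast libraries (8 groups of 3) had been read as 50-bp single-end reads. The authors used bcl2fastq 2.18, Trimmomatic 0.39, TopHat2 2.1.1 on sacCer3 and Cufflinks 2.2.1. They deposited estimated counts of fragments per locus and library without scaling, of which 98.83% are whole within 0.001, and FPKM, which the authors scaled by transcript length and library size. The other columns of the second table hold the authors' own comparisons and were not used, apart from positions. Of 6929 loci, 24 with a failed estimate were left out, and 6346 with a mean FPKM of at least 1 were tested.

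Estimated counts were rounded and fitted with edgeR 4.0.16 in R 4.3.3 (quasi-likelihood, TMM, 8 group means, 16 residual degrees of freedom), with Benjamini-Hochberg adjustment over all loci tested. Standard errors are the log2 fold change divided by the root of F. The common biological coefficient of variation was 10.4%. Alternatives were library totals, relative log expression factors, no filter, only the groups compared, a replicate block, DESeq2 1.42.0 and limma 3.58.1 on log2(FPKM + 1). Further fits left out each library in turn, or Sc12 replicate 3 and Sc12 + Trp replicate 1 together, the libraries with the fewest fragments. The fit was tested on simulated data. The members and gene lists were chosen with earlier results of these data known. Named were the 3 highest and 3 lowest members of each comparison, members called where at most 5 were in a direction or against the others, the highest by level and the middle one of each role, all 10 regulators and the extremes of the other lists; other factors were named after their values were seen. R64 and the deposited loci share start and end for 5359 of 5839 loci of a single gene. The tables number replicates from 0 and the labels from 1, and they were matched in that order.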

Additional observations from a re-analysis of the deposited data

Results flagged for a closer look

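The response to isobutanol differed between Sc12 and WT by the interaction test in edgeR for 16 factors, of which those farthest from 0 are given. The difference, Sc12 less WT, was -1.83 on the log2 scale for *NOP16*, -1.65 for *NIP7*, -1.47 for *BRX1* and 2.30 for *DBP2*. The adjusted p ranged from 1.78e-09 (*NOP16*) to 9.72e-05 (*NIP7*). *NIP7* has few fragments, and its 3 Sc12 + IB libraries held 8.16, 5.94 and 7.39 CPM. All 4 kept their direction with library totals.

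The interaction of strain and tryptophan under isobutanol, again Sc12 less WT, was -2.14 for *DBP2*, -1.83 for *NOP58*, -1.35 for *MAK5* and 1.25 for *NOP16*, with adjusted p from 1.14e-09 to 7.38e-08 for 3 of them and 6.22e-07 for *NOP16*. By limma on log2(FPKM + 1) the adjusted p of *NOP16* was 0.232 in the first test and 0.225 in this one. *MAK5* was at -0.60 with library totals, under the fold threshold. Both tests use the Sc12 + IB libraries, so the opposite signs of *DBP2* and *NOP16* in them are not separate results.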

How the results depend on the processing

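Of 93 pairs of a factor and a comparison that were called, 0 reversed under any alternative. With library totals 75 stayed called, with DESeq2 90, and with limma on log2(FPKM + 1) 58. Library totals also moved the median of all loci, most where Sc12 + IB was compared, and counts with library totals take in that shift. Counts that moved by more than 1.5 times with library totals were those of Sc12 + IB against Sc12 (38 lower in place of 13), Sc12 + IB + Trp against Sc12 + IB (15 higher, 1 lower in place of 1 and 4), Sc12 + IB against WT + IB (1 higher, 14 lower in place of 3 and 3), both interactions (40 lower in place of 15 for isobutanol; 13 higher and 2 lower in place of 1 and 11 for tryptophan), WT + IB against WT (1 higher), Sc12 against WT (9 higher) and Sc12 + Trp against WT + Trp (8 higher). With limma they were WT + IB against WT (2 lower), Sc12 + IB + Trp against Sc12 + IB (2 lower), Sc12 against WT (7 higher), Sc12 + IB + Trp against WT + IB + Trp (4 lower) and the interactions (6 lower; 0 higher and 7 lower). Without Sc12 replicate 3 and Sc12 + Trp replicate 1, 6 factors were higher in Sc12 + Trp against WT + Trp.

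Fits without 1 library follow, with the number of all 6346 loci in brackets. There were 1 to 2 higher in WT + IB against WT (719 to 769). There were 3 to 8 in WT + IB + Trp against WT + Trp (658 to 744). There were 3 to 7 in Sc12 + Trp against WT + Trp (82 to 115). In Sc12 + IB + Trp against Sc12 + IB, 1 to 3 were higher (556 to 604) and 4 to 9 lower (924 to 956). In Sc12 + IB + Trp against WT + IB + Trp, 5 to 15 were lower (692 to 799). Replicate numbers do not pair the samples: same-numbered libraries correlated at a median of 0.011 in their deviations, and 7 of 24 correlated best with their own number. With a replicate block, 4 factors in place of 3 were higher in Sc12 + Trp against WT + Trp, and 7 in place of 8 lower in Sc12 + IB + Trp against WT + IB + Trp. The 3 libraries a group limit the precision, most for *IMP3* and *NIP7*, which have the fewest fragments.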
